A study of Danio rerio with 6 samples.

Results

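Chromatin regulators other than the histone deacetylase (*hdac*) genes were examined in sorted retinal cells of adult zebrafish. The members were chosen by gene symbol, with earlier results of these data known. The prefixes were those of DNA methyltransferases, methyl-CpG binding proteins, chromatin remodellers, Polycomb and chromobox proteins, histone methyltransferases and demethylases, and acetyltransferases. They also covered bromodomain and ING proteins, sirtuins, high mobility group proteins, histones and histone chaperones. This gave 150 of 15502 tested probe sets, of which 145 carried 1 gene symbol (106 genes) and 5 carried several histone symbols. Of the genes, 104 belong to a chromatin role list. The other 2, *katnal1* and *katnbl1*, share the prefix of the acetyltransferases but belong to the katanin family, which acts on microtubules. The sirtuins are deacetylases that use NAD and were taken in by the prefix as well.

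The cells came from adult Tg(3.2TalphaCP:EGFP) fish, in which a cone transducin α promoter drives EGFP, so that all samples carry the transgene and none was treated. Retinal tissue, without pigment epithelium or lens, was dissociated and sorted by fluorescence into a GFP-positive population and a GFP-minus population. Each had 3 biological replicates, with 1 Affymetrix GeneChip Zebrafish array per sample. The labels call both populations cone cells, and the GFP-minus cells are taken here as the sorted cells without EGFP signal. Retinas were pooled before sorting, and the sources used here do not say whether equal replicate numbers stand for shared fish.

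Chromatin packs DNA around histones, and its regulators open, close or mark it. Remodellers slide or evict nucleosomes with ATP, methyltransferases and demethylases write and erase marks on histone tails or DNA, and bromodomain and chromobox proteins bind marked histones. In the mouse retina rod nuclei are small and dense, and the arrangement of their chromatin changes strongly as rods mature. No sequence of these genes was used here.

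The values are log2 expression per probe set made by the authors with GCRMA, which subtracts background, normalizes between arrays and summarises probes, and they ran from 2.17 to 16.1 over all arrays. In GFP-positive cells 11 of 12 measured cone genes were higher and none was lower (limma, adjusted over all probe sets). Of the rod genes 1 of 5 was higher, and of the Müller glia genes 3 of 7 were higher and 1 lower. The cone list averaged 12.6 to 12.9 on GFP-positive and 5.09 to 8.22 on GFP-minus arrays. The rod list averaged 13.3 to 13.7 on GFP-positive and 11.6 to 12.9 on GFP-minus arrays, so rod transcripts were bright in both populations. The GFP-minus population held leukocyte genes (8 of 10 lower in GFP-positive cells), erythrocyte genes (6 of 6 lower) and genes of cycling cells (5 of 19 lower), with none of these lists' genes called higher. In bulk samples, fewer cells of a type and less RNA per cell cannot be told apart.

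Few chromatin regulators passed the test for a difference between the populations, as did few of all tested probe sets. A member that did not pass is not shown to be equal in both populations. From the values as deposited, 3 of 150 member probe sets were higher in GFP-positive cells, against 2.99% of all tested probe sets, and 2 were lower, against 4.69% (limma, adjusted p under 0.05 by the Benjamini-Hochberg method across the whole array). The genes were *brd3b*, *prmt5* and *kdm7aa*, which rose, and *dnmt1* and *ezh2*, which fell. Counted by gene, with the brightest probe set standing for each, 3.4% of 8793 genes were higher and 5.83% lower, and before adjustment 12.2% and 12.8%. All 5 differences were small beside the cone genes, at 1.22-fold to 2.32-fold. Together they made up 3.33% of the members, while 7.68% of all tested probe sets were called. Before adjustment, 21 members were higher with a p under 0.05 (14% of them, against 10.7% of all probe sets) and 5 were lower (3.33%, against 10.4%).

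The median log2 difference was 0.16, against 0.01 over all tested probe sets, and 103 members had a positive and 47 a negative difference. Of all genes, by their brightest probe set, 52.2% had a positive difference. Among probe sets with a log2 value of at least 4 on 3 arrays, the median was 0.20 for members and 0.07 for all. Differences of at least 1 log2 unit, a 2-fold change, were found for 11 members (7.33%, against 14.1% of all tested probe sets), and only *dnmt1* of these passed the test. The 95% confidence interval of the difference lay within 1 log2 unit of 0 on both sides for 78 members. This is 52% of them, against 58.1% of all tested probe sets. Where these members had signal above background, a 2-fold difference lay outside the interval in the values as deposited. The interval measures the spread between arrays only, and 2 other scalings, given below, shifted all differences by 0.23 and by -0.74. Some of the 78 stayed near background, as a *dnmt3ba* probe set at 2.17 and a *setdb2* probe set at 2.57 did on all arrays. There a narrow interval cannot show that a difference is absent. The interval reached 1 log2 unit on at least 1 side for 72 members, where 3 arrays per population could not show whether a 2-fold difference exists.
All arrays of GFP-positive cells lay above all arrays of GFP-minus cells for 32 members, 21.3% of them, against 13.9% of all tested probe sets. They lay below for 6 members, 4% of them, against 13% of all. More members than other probe sets were bright (76.7%, against 56.7%, passed the dim filter, a log2 value of at least 4 on 3 arrays), and among bright probe sets the shares above were closer, 23.5% of members against 20.3% of all, with 4.35% against 18.8% below. With median centring of the arrays, 63 members lay above (42%, against 54% of all probe sets) and 5 below (3.33%, against 8.92%). With arrays scaled to their hybridization controls, transcripts added in known amounts, 0 lay above (0%, against 1.46%) and 53 below (35.3%, against 63.4%). Over all tested probe sets, the surplus of members above was thus absent under both of these scalings. Among bright probe sets 35.7% of members lay above, against 34.8% of all, with median centring. With the control scaling these shares were 0% and 2.54%. Below lay 3.48% of bright members, against 14.4% of all, with median centring, and 24.3% against 46.4% with the control scaling. The share of members below was thus under that of all probe sets as deposited and under both scalings, which was not tested. Of the members, 28 stayed under a log2 value of 4 on all arrays, where little signal stands above background.

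**Figure D1:**
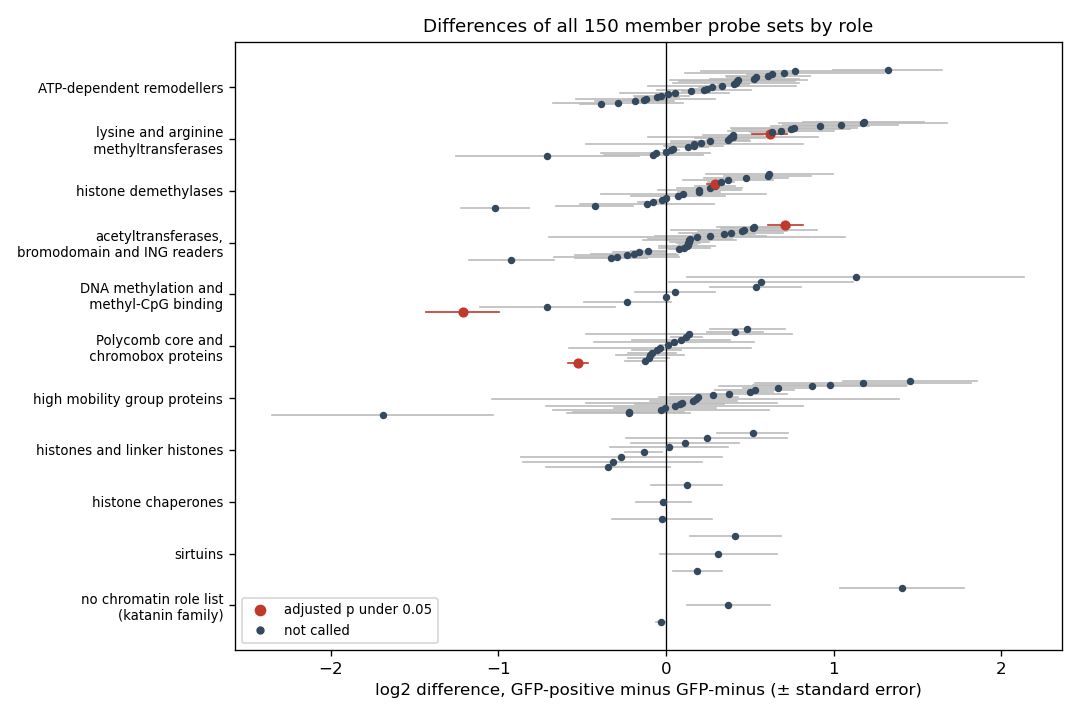
Log2 difference of each of the 150 member probe sets, GFP-positive minus GFP-minus, on the horizontal axis with its limma standard error as a line, grouped by role on the vertical axis. Red points mark the 5 probe sets past the adjusted threshold, and most dark points lie within 1 log2 unit of 0.

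The genes of DNA methylation came out with the largest called difference. The maintenance methyltransferase gene *dnmt1*, whose product copies methylation to the new strand after replication, lay at 4.71, 4.89 and 4.60 on the log2 scale in GFP-positive samples, against 6.29, 6.01 and 5.55 in GFP-minus samples. Its means were 4.74 ± 0.15 in GFP-positive and 5.95 ± 0.37 in GFP-minus cells (SD, n = 3 arrays each), so that *dnmt1* was 2.32-fold lower in GFP-positive cells (log2 difference -1.21, standard error 0.22, limma adjusted p = 0.0485). No array of either population reached the range of the other. With single arrays left out the log2 difference lay between -1.41 and -1.04, and the call held in 1 of 6 cases, without GFP-minus replicate 3 (limma adjusted p = 0.0368, and up to 0.163 in the other cases). The *dnmt1* call was also lost with quantile normalization (limma adjusted p = 0.0865) and with the trended robust prior (0.0513).
The de novo methyltransferase genes were not called. *dnmt3bb.2* and *dnmt3bb.3* reached at most 3.59 on any array, and the brighter *dnmt3ba* probe set had a log2 difference of 0.57 that was not called (limma adjusted p = 0.612).
The genes that encode readers of methylated DNA or their relatives were not called either. *mbd3a* and *mbd3b* encode subunits of the nucleosome remodelling and deacetylase complex, NuRD. *mbd3b* averaged 9.74 ± 0.42 in GFP-positive and 9.21 ± 0.26 in GFP-minus cells (SD over 3 arrays, limma adjusted p = 0.363). *mbd3a* lay at 7.93, 10.1 and 10.4 in GFP-positive samples, against 6.86, 9.06 and 9.07 in GFP-minus samples, with replicate 1 lowest in each population. *mbd2*, a reader of methylated CpG, had a log2 difference of -0.71 (limma adjusted p = 0.419).

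Polycomb repressive complex 2 methylates lysine 27 of histone H3, with *ezh2* encoding its catalytic subunit. *ezh2* lay at 6.48, 6.46 and 6.39 in GFP-positive samples, against 7.05, 6.86 and 6.99 in GFP-minus samples. The populations did not overlap, and *ezh2* was 1.44-fold lower in GFP-positive cells (log2 difference -0.53, standard error 0.06, limma adjusted p = 0.0161). The call held in 2 of 6 cases with a single array left out, without GFP-minus replicate 1 or GFP-minus replicate 2, and the difference lay between -0.58 and -0.49 in all 6. The *ezh2* call was also lost with the dim filter (limma adjusted p = 0.077) and with quantile normalization (0.0858). The other *ezh2* probe sets, near background at 2.55 to 3.09, had log2 differences of -0.12 and -0.10.
The partner subunits of the complex showed no called difference. *eed*, which binds the methylated histone tail, averaged 8.06 in GFP-positive and 8.11 in GFP-minus cells, a log2 difference of -0.06 with a 95% confidence interval from -0.44 to 0.33 (limma adjusted p = 0.917). *suz12a* reached at most 2.89 on any array, and *suz12b* spread over more than 1 log2 unit within each population.
Among the chromobox genes, no probe set was called. The heterochromatin protein 1 genes *cbx3b* and *cbx5* were the brightest, with log2 differences of 0.49 and -0.10, and the Polycomb gene *cbx8a* had 0.41. Over the 11 Polycomb and chromobox genes, 0 were higher (3.4% of all genes), 1 was lower (5.83% of all genes) and 10 were not called, with a median log2 difference of 0.01.
Genes of cycling cells had, as a list, a lower mean in GFP-positive cells, as *dnmt1* and *ezh2* did. The mean log2 level of the 19 measured genes was 4.23 to 4.40 on GFP-positive arrays, against 5.13 to 5.52 on GFP-minus arrays. Of these, 5 were lower (5.83% of all genes), 14 were not called and none was higher (3.4% of all genes). None lay at the lowest value of the whole array, but 4 stayed under a log2 value of 4 on all arrays. Some held a repeated value of their own, as *ccnb2* did at 2.28 on all GFP-minus arrays and *cdc20* at 4.25 on all GFP-positive arrays. Such genes can show little of a difference. The replication helicase gene *mcm2* lay at 4.51 to 4.76 in GFP-positive and 6.87 to 7.24 in GFP-minus samples. *pcna* averaged 9.69 in GFP-positive and 10.2 in GFP-minus cells and was not called (limma adjusted p = 0.143). The proliferation marker *mki67* stayed between 3.55 and 3.73 on all arrays. The leukocyte list averaged 5.44 to 6.46 on GFP-positive and 9.73 to 10.2 on GFP-minus arrays, with *ptprc*, the gene of the leukocyte surface protein CD45, at 3.68 to 4.22 on GFP-positive and 8.90 to 9.70 on GFP-minus arrays. The part of these cells in the differences of *dnmt1* and *ezh2* was not tested.

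**Figure D2:**
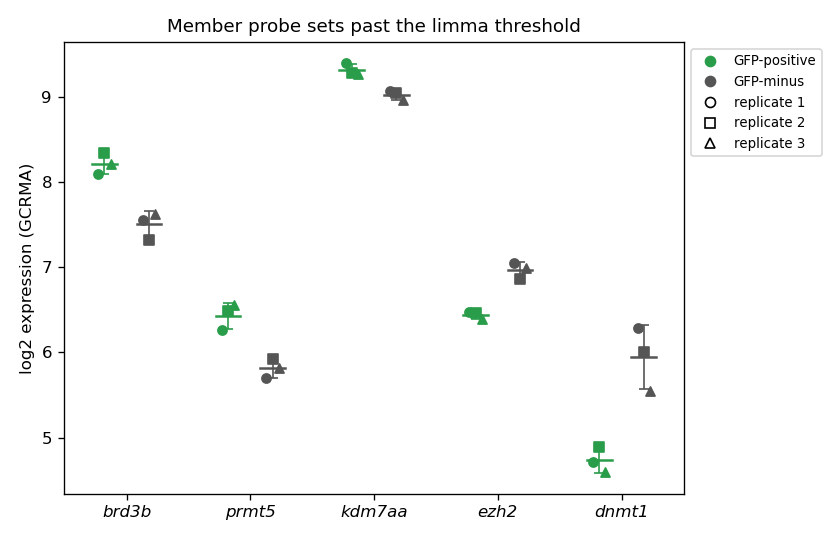
Log2 expression on each array for the 5 called member probe sets, with GFP-positive arrays in green left of GFP-minus arrays in grey, bars for the mean and SD of 3 arrays, and marker shapes for the replicate number. As deposited, the populations do not overlap for any of the 5, and *dnmt1* has the widest gap, 4.74 against 5.95.

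Of 20 genes of histone and arginine methyltransferases, 1 was higher, none lower and 19 not called (3.4% and 5.83% of all genes were higher and lower). As deposited, the difference was positive for 17 of these genes, against 52.2% of all genes. The median was 0.39, against 0.01 over all tested probe sets. With the hybridization-control scaling the difference was positive for 5 genes and the median was -0.35, against -0.73 over all tested probe sets. The called gene, *prmt5*, encodes the main enzyme of symmetric arginine dimethylation. It lay at 6.26, 6.48 and 6.55 in GFP-positive samples, against 5.70, 5.93 and 5.82 in GFP-minus samples. The lowest GFP-positive array was above the highest GFP-minus array, with a log2 difference of 0.62 for *prmt5*, or 1.54-fold (standard error 0.10, limma adjusted p = 0.0404). Its call held in 1 of 6 cases with an array left out, without GFP-positive replicate 1, and was lost with the dim filter (limma adjusted p = 0.0581), and its direction turned to -0.12 with the hybridization-control scaling (limma adjusted p = 0.749).
*prmt1*, the major enzyme of asymmetric arginine dimethylation and the brightest gene of the list, averaged 10.5 in GFP-positive and 10.2 in GFP-minus cells and was not called (limma adjusted p = 0.394). *prmt7* lay at 6.14, 7.71 and 7.48 in GFP-positive samples, against 5.55, 5.98 and 6.26 in GFP-minus samples. Its populations overlapped through GFP-positive replicate 1, and its log2 difference of 1.18 had an interval from -0.15 to 2.51. *prmt8b*, a paralog of *prmt1* whose mammalian relative is known from neurons, had a log2 difference of 1.04 and no overlap between populations, and was not called (limma adjusted p = 0.183).
Both probe sets of *setd3*, whose mammalian product methylates a histidine of actin, pointed the same way. The brighter one lay at 8.33, 9.28 and 8.92 in GFP-positive samples, against 7.75, 7.80 and 8.22 in GFP-minus samples, and the other had a log2 difference of 1.18. The populations did not overlap for either probe set, and neither was called as deposited (limma adjusted p = 0.176 and 0.161). With the dim filter 1 of them was called higher, and with median centring both were.
*kmt2ca*, a gene of the MLL family that methylates lysine 4 of histone H3 at enhancers, averaged 7.61 ± 0.17 in GFP-positive and 6.97 ± 0.17 in GFP-minus cells (SD, n = 3 arrays each), just outside the threshold (limma adjusted p = 0.0652). It was called higher with constant probe sets left out, quantile normalization and median centring, but not with the dim filter or the hybridization-control scaling. *setd7*, a lysine methyltransferase gene, averaged 9.58 in GFP-positive and 8.84 in GFP-minus cells, with arrays that just failed to overlap and no call (limma adjusted p = 0.328). The lowest difference of the list was that of *setdb1b*, a gene of a lysine 9 methyltransferase of histone H3, at -0.71 (limma adjusted p = 0.565).

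Among 12 histone demethylase genes, 1 was higher (3.4% of all genes), none was lower (5.83% of all genes) and 11 were not called. *kdm7aa* encodes a demethylase of the PHF family, which removes repressive methyl marks from histone H3. Its brighter probe set lay at 9.40, 9.28 and 9.27 in GFP-positive samples, against 9.07, 9.04 and 8.96 in GFP-minus samples. The 2 groups of arrays were tight and separate, and the rise of *kdm7aa* was only 1.22-fold (log2 difference 0.29, standard error 0.05, limma adjusted p = 0.0453). The call was lost whichever array was left out (limma adjusted p = 0.0752 to 0.138) and with the dim filter (0.293). It was also lost with quantile normalization and with constant probe sets left out. The sign of the difference turned with the hybridization-control scaling, to -0.44. A further *kdm7aa* probe set lay near background at 2.18 to 2.46 on all arrays.
As deposited, the lysine 27 demethylase genes had differences of opposite sign. With the hybridization-control scaling all 12 demethylase genes had a negative difference. *kdm6ba* lay at 4.34, 4.59 and 4.43 in GFP-positive samples, against 5.31, 5.24 and 5.88 in GFP-minus samples, with a log2 difference of -1.02 just outside the threshold (limma adjusted p = 0.0601). It was called lower with the dim filter, constant probe sets left out, median centring and the hybridization-control scaling, and without GFP-minus replicate 3. It was not called with quantile normalization, the trended robust prior or any other single array left out. The brightest *kdm6al* probe set averaged 7.98 ± 0.14 in GFP-positive and 7.65 ± 0.04 in GFP-minus cells (SD over 3 arrays, limma adjusted p = 0.0937). Whether the 2 genes' differences differ from each other was not tested.
*kdm5ba* and *kdm1a* were the brightest of the list. *kdm5ba*, a lysine 4 demethylase gene, had a log2 difference of 0.26, and *kdm1a*, which encodes the lysine-specific demethylase LSD1, had -0.43. Neither was called (limma adjusted p = 0.552 and 0.392).

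Acetyltransferase and reader genes gave 1 higher gene (3.4% of all genes), none lower (5.83% of all genes) and 15 not called, of 16. *brd3b* encodes a BET protein, whose paired bromodomains bind acetylated histones. Its brightest probe set lay at 8.10, 8.34 and 8.21 in GFP-positive samples, against 7.56, 7.32 and 7.62 in GFP-minus samples. The populations were separate, and *brd3b* differed by 0.71 on the log2 scale, or 1.64-fold (standard error 0.11, limma adjusted p = 0.0318). Its call was lost with any array left out (limma adjusted p = 0.066 to 0.121), and its sign turned with the hybridization-control scaling, at -0.024.
The 3 other *brd3b* probe sets had log2 differences of 0.52, 0.13 and 0.13 and were not called as deposited. Without GFP-positive replicate 1, a probe set among these 3 was called higher. One of them reached at most 2.49 on any array. The BET genes *brd2a* and *brd3a* were not called, and the 4 *brd2a* probe sets lay between -0.33 and 0.26, on both sides of 0. *ing5b*, a gene of an ING protein that reads methylated lysine 4, had a log2 difference of -0.92 that was not called (limma adjusted p = 0.126), at levels of 2.72 to 3.49 in GFP-positive and 3.77 to 4.26 in GFP-minus samples.
The acetyltransferase genes *kat5a*, *kat7b*, *kat8* and *kat14* had log2 differences of -0.24, -0.19, 0.11 and 0.52. None was called.

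None of 16 remodeller genes was called (limma), against 3.4% higher and 5.83% lower of all genes. Before adjustment 6 were higher (12.2% of all genes) and 1 was lower (12.8%). The median log2 difference was 0.25 as deposited and -0.49 with the hybridization-control scaling (0.01 and -0.73 over all tested probe sets). *chd7*, a remodeller gene whose human counterpart is mutated in CHARGE syndrome, had the highest difference of the list. Its brighter probe set lay at 8.23, 8.04 and 8.36 in GFP-positive samples, against 6.98, 6.27 and 7.42 in GFP-minus samples. The arrays did not overlap, but the spread of GFP-minus arrays was wide, and the log2 difference of 1.32 was not called as deposited (standard error 0.33, limma adjusted p = 0.101). It was called with the dim filter, with probe sets constant in a population left out and with median centring.
*chd4b* encodes the motor of NuRD. All 3 of its probe sets had a positive difference, between 0.63 and 0.77, and the one with the smallest spread lay at 8.79, 9.02 and 9.03 in GFP-positive samples, against 8.21, 8.15 and 8.58 in GFP-minus samples (limma adjusted p = 0.0911). Its paralog *chd4a* had a log2 difference of -0.03.
*smarca5*, the gene of the ISWI motor, averaged 9.59 ± 0.09 in GFP-positive and 9.18 ± 0.15 in GFP-minus cells (SD, n = 3 arrays each), with separate arrays and a log2 difference of 0.40 (limma adjusted p = 0.0877). *smarca4a*, a motor gene of the SWI/SNF complex, had 0.28 in its brighter probe set (limma adjusted p = 0.129). *smarce1*, a subunit gene of the same complex, had -0.39, with GFP-positive arrays all below GFP-minus arrays (limma adjusted p = 0.163). *chd2*, the brightest remodeller gene, averaged 10.9 in both populations, with a log2 difference of 0.05.

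The high mobility group genes were among the brightest members. Of 13 genes none was called (limma), against 3.4% higher and 5.83% lower of all genes, and before adjustment 2 were higher (12.2% of all genes) and 0 lower (12.8%). The HMGN proteins bind nucleosomes directly and compete with linker histones. *hmgn1a*, with the highest level of all members, lay at 12.9, 13.1 and 13.4 in GFP-positive samples, against 12.2, 12.7 and 12.5 in GFP-minus samples. The arrays did not overlap, and the log2 difference of 0.67 was not called as deposited (limma adjusted p = 0.171). It was called with quantile normalization (limma adjusted p = 0.0239) and median centring (0.034), and turned to -0.07 with the hybridization-control scaling. A dimmer *hmgn1a* probe set had 1.45, the highest difference of all members (limma adjusted p = 0.129), and was called with the dim filter (0.029), with constant probe sets left out (0.0462) and with median centring (0.034).
*hmgn2* lay at 8.85, 10.5 and 10.5 in GFP-positive samples, against 10.8, 11.9 and 12.2 in GFP-minus samples. This was the lowest difference of all members, at -1.69 with an interval from -3.44 to 0.05 (limma adjusted p = 0.250). All GFP-positive arrays lay below all GFP-minus arrays, but replicate 1 was more than 1 log2 unit under the others in each population. *hmgn3* and *hmgn6* had log2 differences of 0.50 and 0.98 and *hmgn7* had -0.22, and none was called.
The HMGB proteins bend DNA. *hmgb1a* averaged 12.1 in GFP-positive and 11.9 in GFP-minus cells, *hmgb1b* differed by -0.01, and *hmgb3b* had a log2 difference of 1.18 with overlapping arrays (limma adjusted p = 0.399). The brightest *hmga1a* probe set lay between 10.5 and 11.3 on all arrays, with a difference of 0.08.

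**Figure D3:**
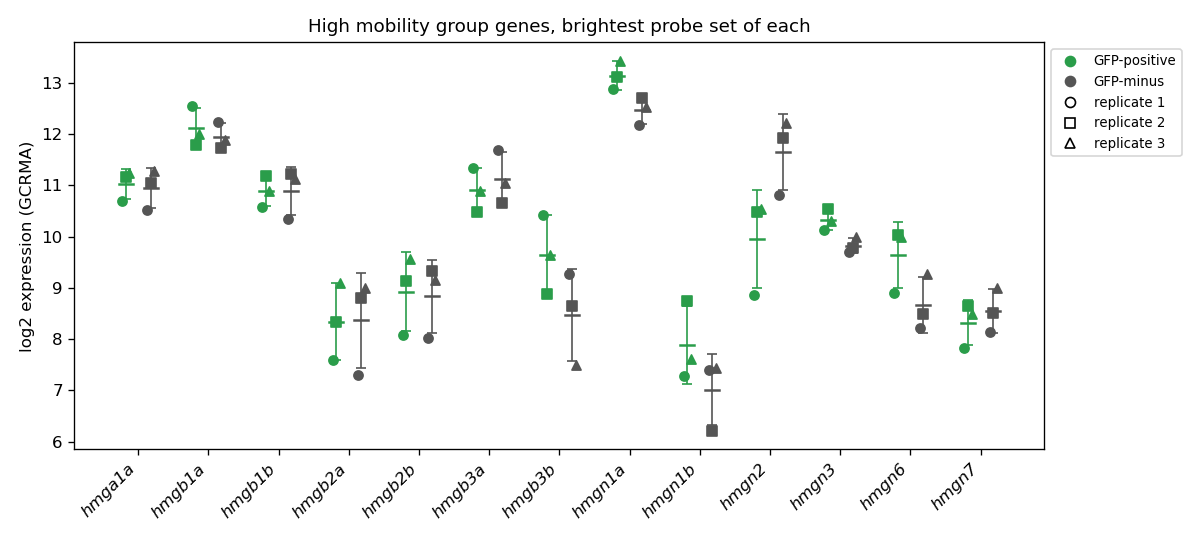
Log2 expression on each array for the brightest probe set of each of the 13 high mobility group genes, GFP-positive (green) left of GFP-minus (grey), with bars for the mean and SD of 3 arrays. *hmgn2* is lower and *hmgn1a* higher on all GFP-positive arrays, and neither passed the test.

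Histone, chaperone and sirtuin genes, with 3 genes in each list, showed no called difference (3.4% of all genes were higher and 5.83% lower). The histone variant gene *h3f3d*, which encodes the replacement histone H3.3, lay at 12.1, 12.7 and 12.6 in GFP-positive samples, against 11.9, 12.4 and 13.0 in GFP-minus samples. Its log2 difference was 0.02, with an interval from -0.92 to 0.95. The 4 probe sets shared by several H3.3 genes had differences from -0.35 to 0.11. *h2ax*, the variant phosphorylated at DNA breaks, had 0.52 (limma adjusted p = 0.272), and *h2az2b*, a gene of variant H2A.Z, had -0.27.
The nucleosome assembly genes *nap1l1*, *nap1l4a* and *nap1l4b* stayed within 0.13 of 0. The sirtuin genes *sirt2*, *sirt3* and *sirt6* had log2 differences of 0.41, 0.19 and 0.31. None of the 3 was called, and 3 genes are too few to set against the share called of all genes.

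Several members varied more with the replicate number than with the population. On 5 probe sets, of *ing2*, *mbd3a*, *hmga1a* and *hmgb2b*, replicate 1 of both populations lay at least 1 log2 unit below all 4 other arrays. This is 3.33% of the members, against 0.464% of all tested probe sets, a pattern sought after the values had been seen and given as a description without a test. *ing2*, a reader of methylated lysine 4, lay at 4.79, 6.78 and 7.03 in GFP-positive samples, against 4.80, 6.82 and 6.43 in GFP-minus samples. A further *hmga1a* probe set lay at 3.98, 6.25 and 6.80 in GFP-positive samples, against 3.74, 5.71 and 7.04 in GFP-minus samples. For these probe sets the arrays of one population differed more among themselves than the population means did. No member had replicate 1 of both populations at least 1 log2 unit above the rest (0.187% of all probe sets), and none had such a gap for replicate 2 or 3 in either direction (0% of all).
Without replicate 1 of both populations, an alternative chosen after seeing the data, 2 members were higher (1.03% of all probe sets) and 0 lower (2.6% of all, limma). These were *h2ax* and the H2A.Z probe set shared by *h2afz* and *h2az2a*, and none of the 5 members called from all arrays was among them.

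**Figure D4:**
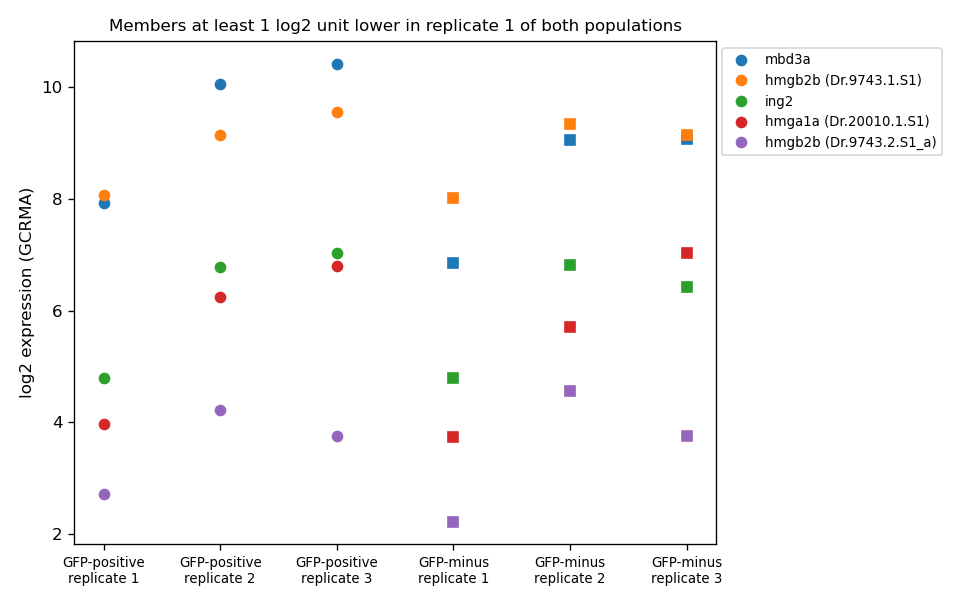
Log2 expression on each of the 6 arrays (horizontal axis, GFP-positive arrays left) for the 5 member probe sets with replicate 1 of both populations at least 1 log2 unit below the other arrays. *ing2* is at 4.79 and 4.80 on the replicate 1 arrays and at 6.43 or above on the others.

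Few of the other genes of chromatin complexes, outside the prefixes, were called. Of 74 measured genes of a list of 120, none was higher, 2 were lower and 72 were not called (limma), with a median log2 difference of 0.09, against 3.4% higher and 5.83% lower among 8793 genes represented by their brightest probe set. *npm1a*, the gene of nucleophosmin, a nucleolar histone chaperone, lay at 8.91, 8.84 and 8.76 in GFP-positive samples, against 9.85, 10.1 and 9.81 in GFP-minus samples (log2 difference -1.08, limma adjusted p = 0.0105). *anp32b*, the gene of an acidic histone chaperone, had -1.77 (limma adjusted p = 0.0467). *uhrf1*, whose product guides DNMT1 to newly copied DNA, was singled out after its values had been seen: it lay at 2.37, 2.33 and 2.34 in GFP-positive samples, against 2.94, 4.49 and 3.90 in GFP-minus samples, and was not called (limma adjusted p = 0.150).

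The number of called members depended on scaling and on single arrays. With quantile normalization 9 members were higher (4.38% of all probe sets) and 0 lower (4.92%). With median centring 46 were higher (39.7% of all) and 3 lower (7.11%). Of these 49 members, 14 stayed under a log2 value of 4 on all arrays, and 4 had all 6 arrays within 0.1. For these 4 the shift of all probe sets, 0.23, was larger than the range of their deposited values. The part of this shift in the other calls was not tested. With the hybridization-control scaling 0 were higher (1.26% of all) and 12 lower (21%), 2 of them under 4 on all arrays. With the dim filter, which kept 115 members, 5 were higher (9.84% of all) and 2 lower (12.4%), the lower ones being *dnmt1* and *kdm6ba*, and with probe sets constant in a population left out 6 were higher (7.04% of all) and 3 lower (9.45%). All probe sets were shifted by 0.23 in log2 difference by median centring and by -0.74 by the hybridization-control scaling, as medians. *dnmt1* and *ezh2* were lower under both of these scalings, and *brd3b*, *prmt5* and *kdm7aa* were higher with median centring, their differences turning negative with the hybridization-control scaling. Relative to all probe sets, the share of members called was lower in both directions as deposited, with the dim filter and with constant probe sets left out. The same held with median centring, the hybridization-control scaling, the trended robust prior and the replicate number as a block. It also held without GFP-positive replicate 3 and without any 1 of the GFP-minus arrays. The share of members was higher in the upward direction with quantile normalization (6% of members, against 4.38% of all) and without GFP-positive replicate 1 (2.67%, against 2.08%). So it was without GFP-positive replicate 2 (1.33%, against 0.922%) and without replicate 1 of both populations (1.33%, against 1.03%). Whether any of these shares differ was not tested.

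**Figure D5:**
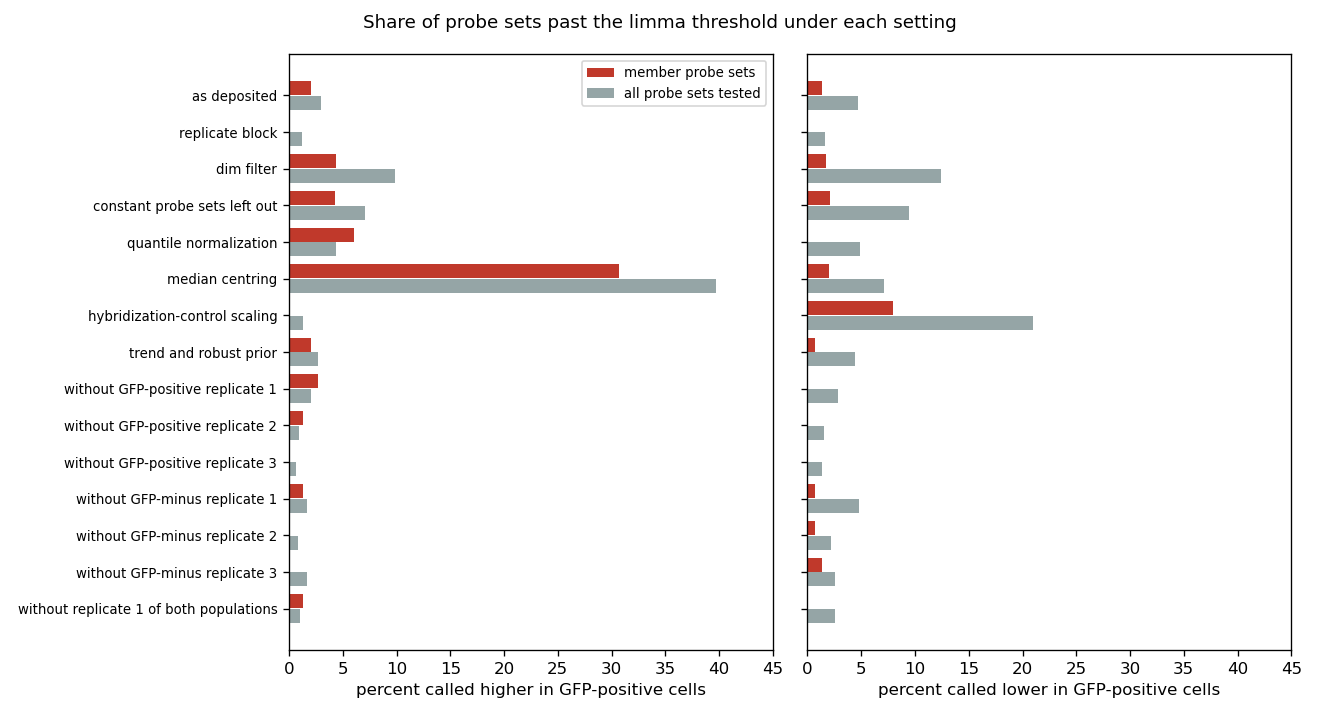
Percent of member probe sets (red) and of all tested probe sets (grey) past the limma threshold, called higher (left panel) or lower (right panel) in GFP-positive cells, under each setting on the vertical axis. Median centring calls 30.7% of members higher and the hybridization-control scaling calls 8% lower, each below the share of all probe sets. Of the 49 members called with median centring, 14 stayed under a log2 value of 4 on all arrays.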

How the data were processed

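Microarray values of 3 GFP-positive and 3 GFP-minus samples were analysed, with groups and replicate numbers from the sample labels. The authors deposited log2 values, 1 per probe set and array, made with GCRMA according to the submitters' processing notes, its version and run options not given in the sources used here. Dim signals often repeat a lowest value that differs between probe sets, such as 2.57 for a *setdb2* probe set and 3.79 for a *katnbl1* probe set. This value can lie above 4, as for *cdc20* at 4.25. Differences of dim genes therefore depend on the background step of GCRMA. Arrays have no read depth, and 3 arrays per population limit the precision.
The table holds 15617 probe sets, and 115 of them, Affymetrix controls, were dropped. Symbols came from the platform annotation, and 149 of 150 member probe sets kept them against the RefSeq table. No genome build is named, so no coordinates are given.
All 15502 probe sets were fitted with limma 3.58.1 in R 4.3.3 (lmFit, eBayes; two-sided; Benjamini-Hochberg; prior degrees of freedom 0.519), and p-values measure the spread between these arrays. The procedure was tested on simulated data. Gene counts use the probe set with the highest mean. Genes named by rule were the called members, the 2 brightest of each role list, all probe sets of genes with a called one, a few fixed core genes and the called extremes of the comparison list. Other genes were named after their values were seen. Members and lists were chosen with earlier results of these data known.
The alternatives comprised a replicate block, a dim filter (log2 of at least 4 on 3 arrays), removal of probe sets constant within 0.01 in a population, 3 scalings, a trended robust prior, each array left out, stricter thresholds, and, added later, both replicate 1 arrays left out. Figures used matplotlib 3.10.9.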

Additional observations from a re-analysis of the deposited data

How the results depend on the processing

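The counts of called members, 3 higher and 2 lower, rested on single arrays: with each array left out they ranged from 0 to 4 higher and from 0 to 2 lower, and the median log2 difference of the members ranged from 0.13 to 0.25. Over the role list genes the counts ranged from 0 to 2 in each direction. With an array left out, 0.664% to 2.08% of all probe sets were higher and 1.38% to 4.77% lower. Counts were 5 higher with the dim filter, 6 higher with constant probe sets left out, 9 higher and 0 lower with quantile normalization, 46 higher with median centring, 0 higher and 12 lower under the hybridization-control scaling, and 1 lower with the trended robust prior. At an adjusted p under 0.01 there were 0 higher and 0 lower, and with at least a 2-fold difference 0 higher and 1 lower. The shares of all probe sets at these stricter thresholds are not given here. Of the role list genes, 7 were higher and 0 lower with quantile normalization, and 31 were higher with median centring. Under the hybridization-control scaling 0 of them were higher and 11 lower, and 1 was lower with the trended robust prior. Of all probe sets, 4.38% were higher and 4.92% lower with quantile normalization, and 39.7% were higher with median centring. Under the hybridization-control scaling 1.26% were higher and 21% lower, and 4.46% were lower with the trended robust prior. Shares of all genes under these settings are not given here. Without replicate 1 of both populations, chosen after seeing the data, 0 members were lower, and 1 role list gene was higher and 0 lower. Of all probe sets, 1.03% were then higher and 2.6% lower. The median difference of members was 0.38 after median centring and -0.58 after hybridization-control scaling, against 0.24 and -0.73 over all tested probe sets. The direction of *brd3b*, *kdm7aa* and *prmt5* turned under the hybridization-control scaling (-0.024, -0.44 and -0.12), with no other alternative turning a called gene.

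With the replicate number as a block, 0 members were higher and 0 lower, in role list genes as well (limma), against 1.25% and 1.65% of all probe sets. The deviations of same-numbered samples correlated at 0.555, 0.059 and 0.266 across genes, and GFP-positive replicate 2 was closer to GFP-minus replicate 3, so the numbers were not taken as pairs. The cause of these changes was not tested.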

Other observations

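The prefix rule took in katanin family genes. *katnal1*, a gene of a microtubule-severing enzyme, lay at 7.18, 7.63 and 7.81 on the log2 scale in GFP-positive samples, against 5.63, 6.80 and 5.98 in GFP-minus samples. The arrays did not overlap, and the log2 difference of 1.41 was not called as deposited (standard error 0.37, limma adjusted p = 0.118). It was called with the dim filter, constant probe sets left out and median centring, but not with quantile normalization or the hybridization-control scaling. The brighter probe set of *katnbl1*, a gene related to the regulatory katanin subunit, had a log2 difference of 0.37.

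Where a gene had several probe sets, they differed in signal. Of 26 such genes, 13 had at least 2 probe sets that passed the dim filter. These probe sets had differences of the same sign for 10 genes, among them *chd4b*, *hmga1a*, *setd3* and *smarca4a*. For *brd2a*, *cbx5* and *chd2* they lay on both sides of 0, with differences no larger than 0.33 in size.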
